A study of Mus musculus with 4 samples.

Results

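Potassium channel genes were examined by RNA sequencing in cultured epidermal stem cells (EpSCs), from which the keratinocytes of the skin arise. The genes are all protein-coding rows of the deposited count table whose symbol begins with Kcn, which gave 94 genes of 54532 in all. The cells came from the skin of C57BL/6 mice and were cultured in EpiLife medium with HKGS supplement. One group (ALP, n = 2 libraries) received 30 μg/mL ALP for 48 h, taken to be the polysaccharide of burdock (Arctium lappa L.) that the series title names. The other (control, n = 2 libraries) received 0.06% DMSO, the vehicle, for 48 h. The labels do not say whether the ALP cultures also received DMSO, nor whether replicates were taken from separate animals or cultures. P-values here therefore reflect the spread between these 4 libraries alone, and that spread may be technical. The letters A and B name the libraries of a group and pair nothing.

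Potassium channels let potassium leave the cell along its gradient and so set the voltage across the membrane. Their pore-forming (alpha) subunits fall into voltage-gated channels, inward rectifiers, tandem-pore background channels and channels opened by intracellular calcium or sodium, and auxiliary subunits tune them. Kcnn4 encodes the intermediate-conductance calcium-activated channel, which is opened by calcium through bound calmodulin. It is best known from T cells, red blood cells and secretory epithelia, where the voltage it sets helps to drive calcium entry or chloride secretion. In keratinocytes, calcium and membrane voltage are both linked to the step from growth to differentiation.

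Total gene counts lay between 15766244 and 17430345 per library. No library was a copy of another: chi-square per degree of freedom was 6.42 between the controls, 24.8 between the ALP libraries and 59.8 to 164 across groups. Of 6 basal keratinocyte markers all passed the low-count filter, with a summed level of 36100 and 29900 CPM (counts per 1000000, TMM-scaled) in ALP and 48100 and 48300 in control. Krt5 and Krt14 make up most of this sum. Krt5, Krt14, Trp63 and Col17a1 were called lower in ALP by edgeR, and Itgb4 (1.14 ± 0.14) and Itga6 (0.38 ± 0.09) higher. T cells also express Kcnn4. Of 5 T cell markers Cd3e, Cd3g, Cd3d and Cd8a had 0 counts in all libraries, while Trac had 5 counts in all. The 8 myeloid and mast cell markers summed to between 1.77 and 2.26 CPM per library, with Cd207 and Cpa3 at 0 and Ptprc at 1 count in all. Neurons and muscle express many potassium channel genes. The 5 markers of neurons and glia summed to 1.97 and 1.62 CPM in ALP and to 1.13 and 0.571 in control, with Rbfox3 at 0, and the 4 of muscle to 1.68 and 1.29 against 0.793 and 0.457, with Des at 0. Of the muscle markers Actg2 was called higher by edgeR, at 1.22 and 0.97 CPM in ALP against 0.227 and 0.228 in control. Myh11 and Acta1 had 19 and 8 counts in all and were not tested. The 3 Merkel cell markers summed to 2.84 and 5.56 against 1.25 and 1.37 CPM. Among them Piezo2 was called higher, at 2.49 and 5.56 CPM against 1.02 and 1.26, while Atoh1 and Krt20 had 3 and 9 counts in all. The 5 fibroblast markers summed to 7.06 and 4.01 CPM against 16 and 12.6, with Lum at 0. Of the fibroblast markers Dcn was called lower, at 3.07 and 0.517 CPM against 13.1 and 8.57. Pdgfra, Col1a1 and Col1a2 passed the low-count filter and were not called. The part of such cells in the results that follow was not tested. Melanocyte markers were present in every library, at 64.7 and 53.7 CPM in ALP and 62.0 and 56.7 in control. In bulk samples fewer cells of a type and less RNA per cell cannot be told apart.

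Most of the 94 genes were not detected or barely so. There were 21 genes with 0 counts in all 4 libraries and 49 with some counts but under the low-count filter (10 counts in a library of median size, in at least 2 libraries, and 15 in total). The other 24 genes (25.5%) passed it, against 55.6% of the 22046 protein-coding genes of the table. A count of 0 allows up to 3 counts, which is 0.17 to 0.194 CPM in these libraries, for counting error only. The 49 genes under the filter had 1 to 28 counts over the 4 libraries, with a median of 3, and 31 of them had at most 5. The genes just inside the filter were Kcnd3 with 30 counts in total, Kcna1 with 46 and Kcna7 with 53. Just outside it lay Kcnab3 with 28 counts, Kcnd1 with 24, and Kcnab1 and Kcnc4 with 23 each.

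**Figure D1:**
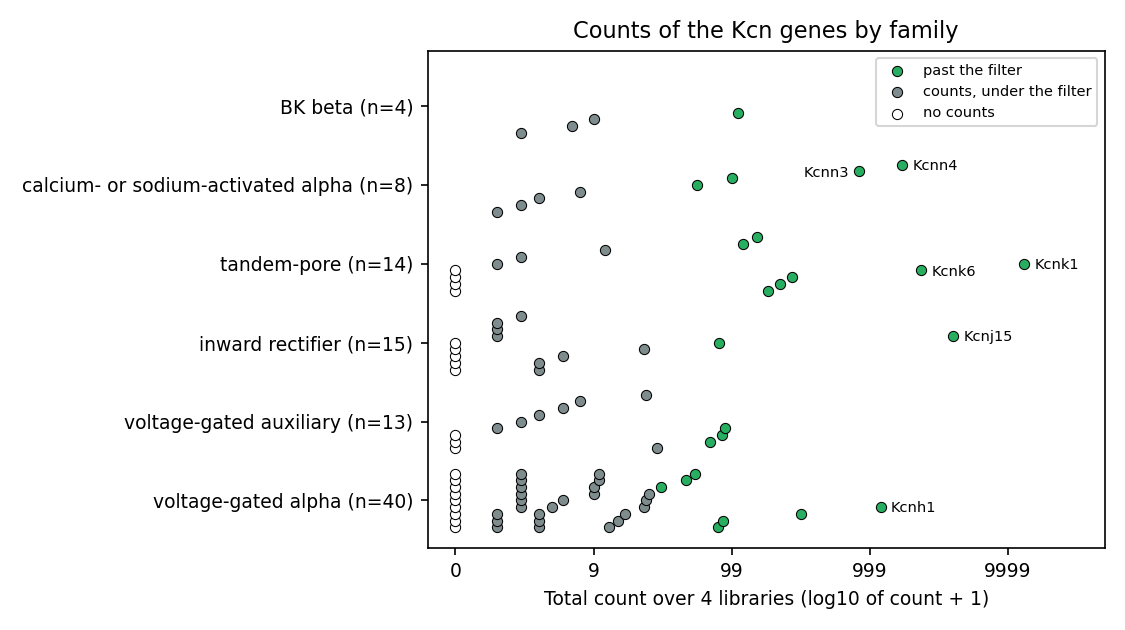
Total count of each of the 94 Kcn genes over the 4 libraries (x axis, log10 of count + 1) by channel family (y axis); each point is a gene, filled green past the low-count filter, grey under it and white at 0 counts. Kcnk1, with 13129 counts, lies to the right of all other genes, and the voltage-gated families sit mostly near 0.

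Detection differed in number between families, which were assigned by gene symbol. Of 14 tandem-pore genes 7 passed the filter, and of 8 calcium- or sodium-activated alpha genes 4 did. Of 40 voltage-gated alpha genes 7 passed and 9 had no counts. Of 15 inward rectifier genes 2 passed, of 13 auxiliary genes of voltage-gated channels 3, and of 4 beta subunit genes of the BK channel (the large-conductance calcium-activated channel) 1. At 0 counts were Kcna5, Kcna10, Kcnc1, Kcnc2, Kcnd2, Kcng4, Kcnh5, Kcnh8 and Kcns2 of the voltage-gated alpha genes. Also at 0 were the auxiliary genes Kcne1, Kcne3 and Kcnip1, the inward rectifiers Kcnj1, Kcnj3, Kcnj6, Kcnj11 and Kcnj12, and the tandem-pore genes Kcnk3, Kcnk9, Kcnk15 and Kcnk18. Kcnj11, which encodes the pore of the ATP-sensitive channel, had 0 counts, and its regulatory partners Abcc8 and Abcc9 had 2 and 0. Kcnma1, the pore-forming gene of the BK channel, had 2 counts in all, 1 in ALP replicate B and 1 in control replicate A. Its auxiliary gene Kcnmb4 passed the filter with 110. Kcnq1, Kcnj5, Kcnj8, Kcnj16, Kcnk16, Kcne2, Kcnt2 and Kcns1 had a single count each.

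Kcnn4 lies on chromosome 7, from 24370263 to 24386690 on the plus strand (GRCm38). ALP replicate A had 655 counts and ALP replicate B 1010, against 14 in control replicate A and 39 in control replicate B. As TMM-scaled CPM these are 37.9 and 65.3 in ALP against 0.793 and 2.23 in control. The groups were far apart and did not overlap, but the libraries within each group also differed. As a share of all counts, control replicate A had 0.804 per 1000000 (exact 95% binomial interval 0.44 to 1.35) and control replicate B 2.25 (1.6 to 3.07), so these 2 controls differed by more than counting error. The mean rose from 1.51 ± 1.01 to 51.6 ± 19.4 CPM (SD, n = 2 per group), a log2 fold change of 5.09 ± 0.49 (SE) or 34.0-fold, with an adjusted p = 0.0161 by edgeR's quasi-likelihood test. This was the largest increase among the 24 tested Kcn genes and the 10th largest of all 14056 genes tested. With no low-count filter Kcnk13, at 4 and 7 counts in ALP and 0 in both controls, came ahead of it. Its size depended on the control: without control replicate A it was 4.52 (adjusted p = 0.113 by edgeR), and with control replicate B left out it was 6.02. Leaving out ALP replicate A gave 5.42, and leaving out ALP replicate B gave 4.66. In the authors' deposited table the log2 fold change of Kcnn4 is 5.10 with an adjusted p = 2.2e-09.

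The bases before the start of Kcnn4 are shown with those of Kcnk12, the Kcn gene with the next largest increase, since these 2 starts belong to the most increased members. Each run gives the 250 bases before the RefSeq start (GRCm38.p6), 5′ to 3′ on the gene's strand, with matches to searched motifs in capitals.
Kcnn4, chr7:24370013-24370262, plus strand: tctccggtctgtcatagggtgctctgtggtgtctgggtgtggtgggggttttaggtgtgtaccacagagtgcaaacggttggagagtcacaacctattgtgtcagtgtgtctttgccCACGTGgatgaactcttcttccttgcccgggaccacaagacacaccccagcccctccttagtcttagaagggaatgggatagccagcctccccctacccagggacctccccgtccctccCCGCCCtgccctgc
Kcnk12, chr17:87797995-87798244, minus strand: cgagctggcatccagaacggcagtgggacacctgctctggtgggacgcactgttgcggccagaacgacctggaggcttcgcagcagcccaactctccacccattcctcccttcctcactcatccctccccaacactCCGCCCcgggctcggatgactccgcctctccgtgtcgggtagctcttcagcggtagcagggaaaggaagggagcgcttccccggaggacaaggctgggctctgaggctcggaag
The motifs searched on both strands were the AP-1 motif TGANTCA, the E-box CACGTG, the GC box GGGCGG, the TATA box TATAAA and the ETS core CCGGAA, and no matches in these runs overlap each other. The Kcnn4 run holds an E-box, which begins 133 bases before the start, and a GC box on the minus strand at 14 bases. The Kcnk12 run holds a GC box at 114 bases. The same E-box occurs in 6.02% of 32851 RefSeq promoters of this length and in 6 of 94 Kcn promoters, which belong to 69 genes with an entry. The GC box occurs in 32.7% of all promoters and in 42 of the 94. The Kcnn4 run has 6 CpG dinucleotides, the same as the median of all promoters, and that of Kcnk12 has 16.

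Kcnn4 moved far up the order of the members' levels. Levels were compared between genes as CPM per kb of the gene length in the table. By its mean, Kcnn4 ranked 19th of 94 in control, at 0.295 CPM per kb, and the 2nd in ALP, at 10.1. In single libraries it ranked 25th and 15th in the controls and 4th and 2nd in ALP. It made up 0.158% and 0.380% of the summed level of all Kcn genes in the control libraries and 5.32% and 8.44% in the ALP libraries. All Kcn genes together summed to 324 and 351 CPM in control and 413 and 435 in ALP, and to 323 and 348 against 375 and 370 without Kcnn4.

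**Figure D2:**
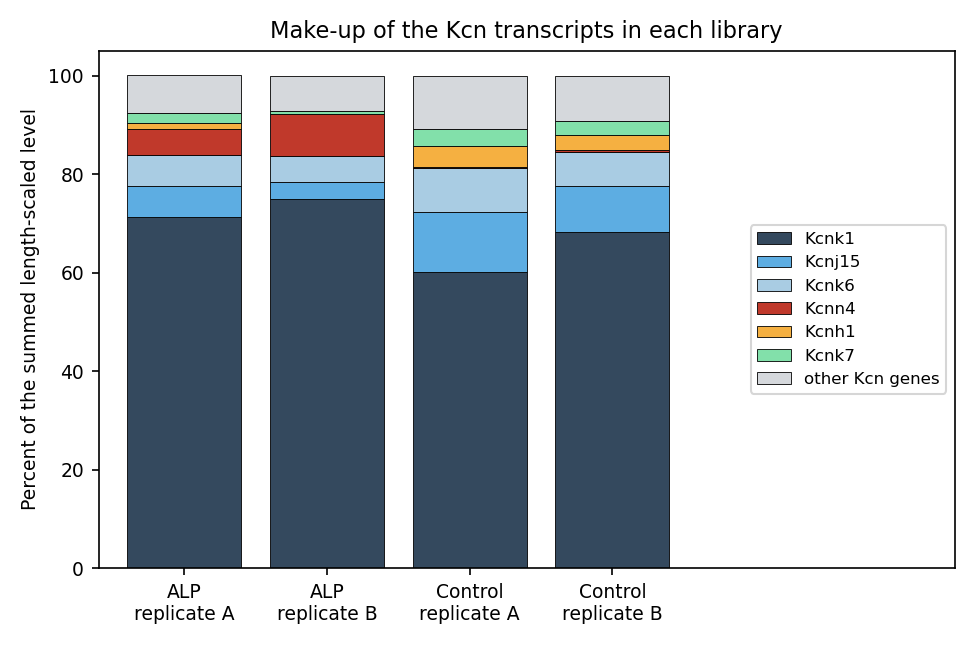
Share of the summed length-scaled level (CPM per kb) of all 94 Kcn genes taken by the 6 named genes and by all others, in percent (y axis), as 1 bar per library. Kcnk1 takes 60.1% to 74.9% in every library, and the red Kcnn4 segment is visible at 5.32% and 8.44% in the ALP bars.

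Kcnk1 was the most abundant member in every library. It encodes a tandem-pore background channel, and had 3834 and 3918 counts in ALP against 2321 and 3056 in control. At 222 and 253 CPM in ALP against 131 and 175 in control, the groups did not overlap. It rose by 0.63 ± 0.16 on the log2 scale (adjusted p = 0.0361 by edgeR), from 153 ± 30.5 to 238 ± 22.3 CPM (SD, n = 2 per group). The order below it in control was Kcnj15 at 11.4 CPM per kb, Kcnk6 at 8.28, Kcnh1 at 3.82, Kcnk7 at 3.36, and Kcnk4 at 1.48, with Kcnn3 in the 8th place at 0.884. The control libraries of Kcnk7 (3.42 and 3.31) reached the lower one of Kcnh1 (4.22 and 3.42). In ALP the order was Kcnk1 at 106, Kcnn4 at 10.1, Kcnk6 at 8.44 and Kcnj15 at 7.01 CPM per kb. The ALP libraries of Kcnn4 (7.41 and 12.8) enclosed those of Kcnk6 (8.73 and 8.16), and those of Kcnj15 (8.84 and 5.17) overlapped both, so that these places are not separated by their spread.

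**Figure D3:**
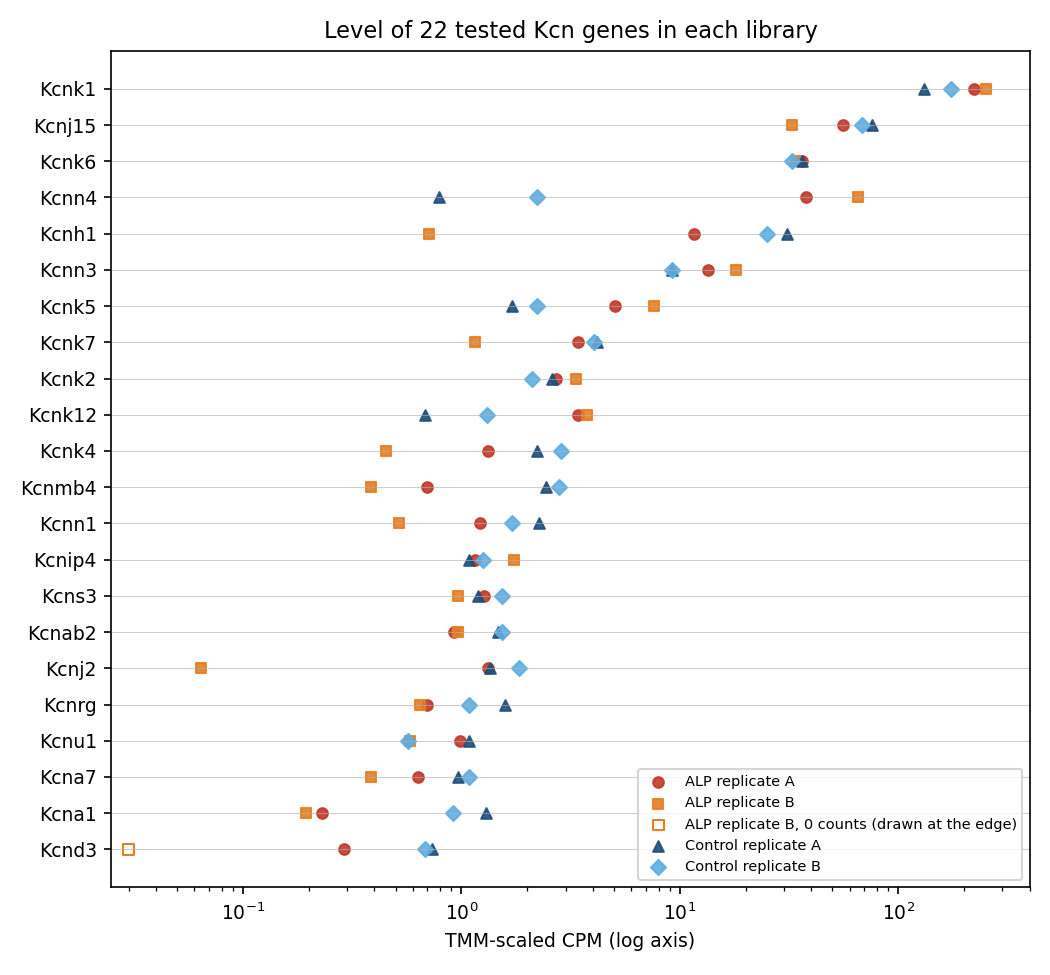
TMM-scaled CPM (x axis, log scale) of 22 of the tested Kcn genes (y axis, ordered by total count), with 1 point per library. For Kcnn4 both ALP points (37.9 and 65.3) lie far to the right of both control points (0.793 and 2.23), and for Kcnh1 and Kcnj2 the ALP replicate B point lies far to the left of the other libraries.

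Of the 24 tested Kcn genes 7 were called at an adjusted p under 0.05 by edgeR, or 29.2%, near the 29.8% of all genes tested. Kcnn4, Kcnk12, Kcnk5, Kcnn3 and Kcnk1 were higher in ALP, which is 5 of 24 beside 17.7% of all genes. Kcnmb4 and Kcna1 were lower, which is 2 of 24 beside 12.1% of all genes. The groups did not overlap in 20 of the 24, beside 75.7% of all genes. Of the 12264 protein-coding genes tested, 32.6% were called, 19.7% higher and 12.9% lower, and in 78.4% the groups did not overlap. The log2 fold change was negative in 16 and positive in 8, with a median of -0.69 beside a median of 0 over all genes. Against the control mean (log2 of CPM + 0.5), the median of the 24 was -0.24 for ALP replicate A, while ALP replicate B gave -0.72. Kcna1 and Kcnd3 passed the low-count filter through their control libraries alone, so that they had to differ, which leaves Kcnmb4 as the other lower call. The median depends on the filter and the libraries: over all 73 members with counts it was 0.07, and it was -1.04 without ALP replicate A and -0.33 when the other ALP library was left out. The calls rest on both controls: without control replicate A edgeR called 0 genes in the whole table, although 3311 had an unadjusted p under 0.05, and 0 members. Without control replicate B it called 183 genes higher and 14 lower, and of the members Kcnn4 alone.

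**Figure D4:**
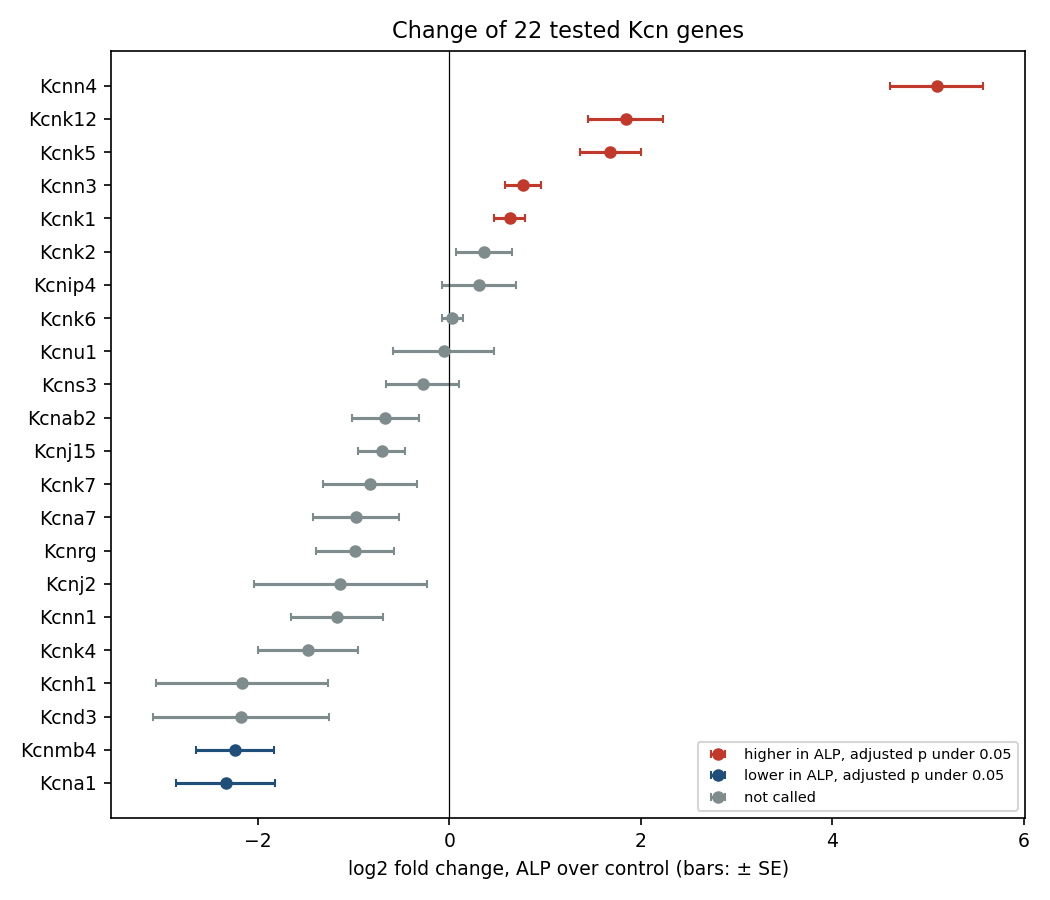
Log2 fold change of ALP over control (x axis, bars ± SE from the quasi-likelihood fit, n = 2 per group) for 22 of the tested Kcn genes (y axis), coloured by the call. Kcnn4 at 5.09 stands apart from Kcnk12 at 1.84 and Kcnk5 at 1.68, and Kcna1 at -2.34 is the lowest.

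Besides Kcnk1, 2 further tandem-pore genes rose, Kcnk12 and Kcnk5, both of low abundance. Kcnk12, which encodes a channel that gives little or no current when expressed alone, had 59 and 58 counts in ALP against 12 and 23 in control. The ALP libraries were even at 3.41 and 3.75 CPM, above 0.680 and 1.31 in the controls. Kcnk12 rose by 1.84 ± 0.39 on the log2 scale (adjusted p = 0.0251 by edgeR). Its deposited gene coordinates differ from those of GENCODE M21, and what this does to its count was not tested. Kcnk5 encodes a background channel that is opened by alkaline pH and takes part in volume regulation. It had 87 and 118 counts in ALP against 30 and 39 in control, or 5.03 and 7.63 CPM against 1.70 and 2.23. Kcnk5 rose by 1.68 ± 0.32 (adjusted p = 0.021 by edgeR), and its groups did not overlap.

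The other tested tandem-pore genes did not pass. Kcnk6, related to Kcnk1, was level in all libraries, at 36.2 and 33.9 CPM in ALP against 36.1 and 32.7 in control, a log2 difference of 0.03 ± 0.11. Kcnk2, a channel opened by stretch, measured 2.72 and 3.36 CPM in ALP against 2.61 and 2.11, a log2 difference of 0.36 ± 0.29. Kcnk4, another mechanosensitive member, measured 1.33 and 0.453 CPM against 2.21 and 2.86, with a log2 difference of -1.48 ± 0.52 (adjusted p = 0.0795 by edgeR). It shares 587 exon bases with Catsperz on the same strand in GENCODE M21, whose model of Kcnk4 differs from that of the table, which makes its count uncertain. Kcnk7, whose product is not known to carry current alone, measured 3.41 and 1.16 CPM in ALP against 4.19 and 4.06. The deposited coordinates of Kcnk7 also differ from those of GENCODE M21. For both Kcnk4 and Kcnk7 ALP replicate B was the lowest library, at 7 and 18 counts. Under the filter, Kcnk13, a relative of Kcnk12 named here after its values were seen, had 4 and 7 counts in ALP and 0 in both controls.

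The calcium-activated genes did not move as a family. Kcnn3, which encodes a small-conductance channel, had 234 and 278 counts in ALP against 163 and 162 in control. The controls were nearly equal at 9.23 and 9.25 CPM, below 13.5 and 18.0 in ALP. Kcnn3 rose by 0.77 ± 0.19 on the log2 scale (adjusted p = 0.0358 by edgeR). Its relative Kcnn1 measured 1.22 and 0.517 CPM in ALP against 2.27 and 1.71 in control, which missed the threshold at -1.18 ± 0.48 on the log2 scale (adjusted p = 0.114 by edgeR). Kcnn2, the other small-conductance gene, had 7 counts in all and was not tested. Per length, Kcnn4 stood at 10.1 CPM per kb in ALP beside 1.51 for Kcnn3 and 0.189 for Kcnn1. In control it stood at 0.295, below Kcnn3 at 0.884 and Kcnn1 at 0.434. Kcnu1, known from sperm and placed in this family by its symbol alone, measured 0.984 and 0.582 CPM against 1.08 and 0.571, with no separation of the groups.

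Kcnmb4, which encodes a beta subunit of the BK channel, fell. It had 12 and 6 counts in ALP against 43 and 49 in control, and its groups did not overlap at 0.694 and 0.388 against 2.44 and 2.80 CPM. Kcnmb4 fell by 2.24 ± 0.41 on the log2 scale (adjusted p = 0.0193 by edgeR), or 4.74-fold. It shares 20.8% of its exon bases with Kcnmb4os2 on the opposite strand, which had 2 and 1 counts in ALP and 11 and 6 in control. No source used here gives the strandedness of the counting, and reads of this pair cannot be told apart. The other BK beta genes Kcnmb1, Kcnmb2 and Kcnmb3 had 9, 2 and 6 counts in all.

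Among voltage-gated alpha genes Kcna1 alone was called, and it entered the test through its control libraries alone. Kcna1, of the Shaker family, had 4 and 3 counts in ALP against 23 and 16 in control, a log2 difference of -2.34 ± 0.52. Since a gene admitted this way had to be higher in control, its call is given as a description. In the authors' deposited table its adjusted p is 1, and at least 1 CPM in 2 libraries as a filter left it out. Kcnh1, an ether-à-go-go channel gene studied for its role in dividing cells, was the most abundant of this family. It had 200 and 11 counts in ALP against 546 and 439 in control, or 11.6 and 0.711 CPM against 30.9 and 25.1. Both ALP libraries were below both controls, but they differed so much that the log2 difference of -2.17 ± 0.90 did not pass (adjusted p = 0.118 by edgeR). It was -5.29 without ALP replicate A (adjusted p = 2.05e-06 by edgeR) and -1.26 on leaving out the other (adjusted p = 6.04e-05), in fits whose spread within groups comes from the control pair alone. By limma-voom it was -3.15 (adjusted p = 0.0443).

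The other voltage-gated alpha genes were low. Kcnd3, an A-type channel gene, had 5 and 0 counts against 13 and 12. Kcna7 measured 0.636 and 0.388 CPM against 0.963 and 1.09. Kcns3, whose product is silent alone and modifies other channels, overlapped between groups at 1.27 and 0.970 against 1.19 and 1.54 CPM. Of the auxiliary genes, Kcnab2, a cytoplasmic beta subunit, measured 0.926 and 0.970 CPM against 1.47 and 1.54, and Kcnrg, which hinders channel assembly, 0.694 and 0.646 against 1.59 and 1.09. Neither passed, with log2 differences of -0.67 ± 0.35 and -0.99 ± 0.41 (adjusted p = 0.187 and 0.121 by edgeR). Kcnip4, a calcium-binding partner of A-type channels, overlapped between groups, with a log2 difference of 0.31 ± 0.39. It shares 4.63% of its exon bases with 5730480H06Rik on the opposite strand, which had 739 counts beside its own 88, so its count is uncertain.

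Of the inward rectifiers, Kcnj15 was the second most abundant Kcn gene in control. It encodes an epithelial inward rectifier, and had 965 and 505 counts in ALP against 1342 and 1199 in control. At 55.8 and 32.6 CPM against 76.0 and 68.5 the groups did not overlap, and its log2 difference was -0.71 ± 0.25, with an adjusted p = 0.0799 by edgeR and 0.0184 by DESeq2. Kcnj2, the classical strong inward rectifier, had 23 and 1 counts in ALP against 24 and 32, with ALP replicate B far below the other libraries. Between the ALP libraries 7 tested members differed more than 2-fold, among them Kcnh1, Kcnk7, Kcnk4, Kcnn1, Kcnj2 and Kcnd3, while between the controls 1 did, Kcnn4.

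The genes next to Kcnn4 were measured as well, taking the 3 tested protein-coding genes on each side. All 3 on the side of higher coordinates rose, so that 3 of 6 were called higher beside 17.7% of all genes tested. Smg9, of nonsense-mediated decay, begins 12.9 kb away and rose by 0.84 ± 0.14 on the log2 scale. Plaur, which encodes the urokinase receptor and begins 75.8 kb away, rose by 3.13 ± 0.32, and Cadm4, a cell adhesion gene 95.3 kb away, rose by 1.86 ± 0.31 (adjusted p between 0.0161 and 0.0168 by edgeR for these 3). On the other side Lypd5 (-1.04 ± 0.46), Zfp94 (-0.20 ± 0.28) and Zfp61 (-0.39 ± 0.20) did not pass. Around Kcnk12, the mismatch repair gene Msh6 (0.90 ± 0.13, 177 kb away) and the adhesion gene Epcam (1.88 ± 0.23, 94.7 kb) rose. Around Kcnmb4 the nearest, Cnot2 at 11.3 kb, did not pass (-0.21 ± 0.08), and the 3 on the side of lower coordinates fell, of which the nearest, Lgr5, lies 830 kb away.

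**Figure D5:**
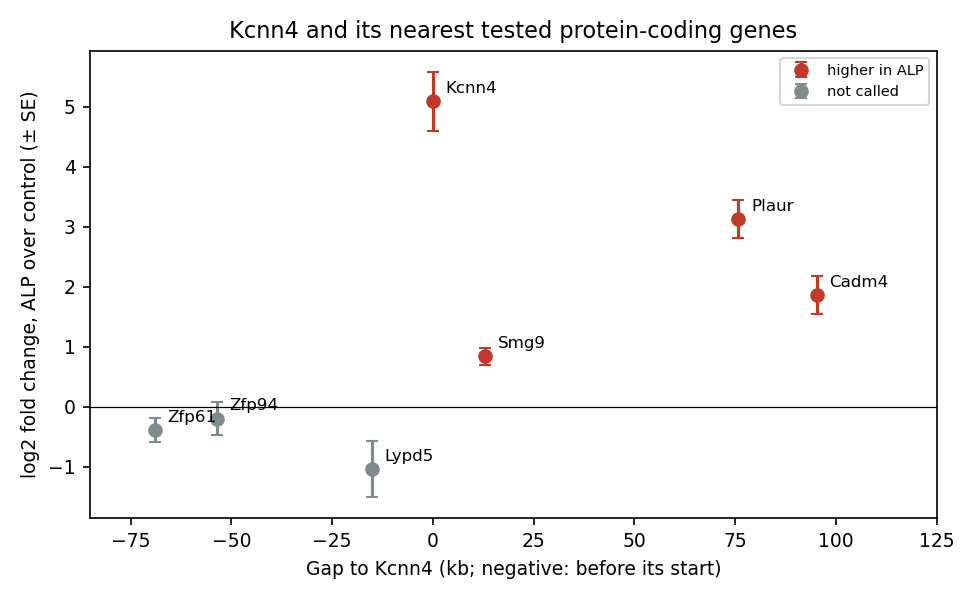
Log2 fold change (y axis, bars ± SE, n = 2 per group) of Kcnn4 and the 3 nearest tested protein-coding genes on each side against their gap to Kcnn4 in kb (x axis). Smg9, Plaur and Cadm4 lie above 0, at 0.84, 3.13 and 1.86, and the 3 genes before the start of Kcnn4 lie below it.

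Of 52 genes that work with potassium channels, chosen by role, 37 were tested, of which 12 rose, beside 17.7% of all genes tested, and 3 fell, beside 12.1%. Their median log2 fold change was 0.06 beside 0 over all genes. The increases with the smallest p-values were those of Piezo1, a stretch-activated calcium-permeable channel, Atp1b1 and Fxyd5 of the sodium-potassium pump, and Ano1, a calcium-activated chloride channel. Piezo1 measured 156 and 196 CPM in ALP against 61.9 and 76.6 in control and rose by 1.35 ± 0.16 on the log2 scale. Atp1b1, a beta subunit gene of the pump, measured 33.4 and 54.3 CPM against 6.46 and 9.08 and rose by 2.49 ± 0.30. The more abundant beta gene Atp1b3, named after its values were seen, measured 307 and 248 CPM against 347 and 328 and did not pass (-0.28 ± 0.13). Fxyd5 rose by 4.05 ± 0.51, from 0.283 and 0.171 CPM in control to 2.89 and 4.91 in ALP, and Ano1 by 1.11 ± 0.14 to 48.5 and 61.5 CPM. The genes that fell were Fxyd3, a pump regulator, by 1.06 ± 0.18, the calcium channel gene Trpv6 by 1.98 ± 0.40, and Stim1, the calcium sensor of the endoplasmic reticulum, by 0.76 ± 0.16. Without control replicate A edgeR called 0 of the partner genes, and on leaving out control replicate B it called 2, both higher.

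The partners closest to Kcnn4 in function did not all move. Of the calmodulin genes, which encode the calcium sensor bound to this channel, Calm3 rose by 0.48 ± 0.09 and Calm2 did not pass (0.21 ± 0.11). Orai1, Orai2 and Orai3, which form the store-operated calcium channel, had log2 differences of -0.03 ± 0.18, -0.10 ± 0.08 and -0.07 ± 0.19. Of 5 genes for regulators of the channel protein 4 were tested and 1, the ubiquitin ligase gene Trim27, rose, by 0.83 ± 0.12. Rest, which encodes a repressor known to act on Kcnn4, measured 90.0 and 83.0 CPM in ALP against 95.6 and 96.9, with a log2 difference of -0.15 ± 0.08 (adjusted p = 0.209 by edgeR). Calm2, Calm3, the Orai genes, Trim27 and Rest are named after their values were seen. Endothelial cells also express Kcnn4, and their 3 markers summed to 14.4 and 24.8 CPM in ALP against 4.59 and 6.57 in control. Of these Pecam1 (8.33 and 13.8 CPM in ALP, 3.96 and 5.54 in control) and Kdr (6.08 and 11.0, 0.510 and 1.03) were higher in ALP. The third, Cdh5, had 0 and 1 counts in ALP and 2 and 0 in control. The part of such cells in the increase of Kcnn4 was not tested.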

How the data were processed

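The submitters' processing notes name HISAT2 2.0.5 and featureCounts 1.5.0-p3 for the 4 RNA libraries. They also list GRCh38, a human build, whereas the gene identifiers are mouse ones, and 90 of the 94 members have the coordinates of GENCODE M21 (GRCm38). The authors deposited raw counts per gene and library. The 4 FPKM columns were not used. The authors' deposited normalized signal columns (a mean per group) served no result. No source here names the test behind the authors' deposited log2 fold changes and adjusted p-values. Columns carry other replicate numbers than the labels, so each was assigned to its group alone.

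Counts were filtered with filterByExpr (minimum count 10, minimum total 15), TMM-scaled and compared by edgeR 4.0.16's two-sided quasi-likelihood test (glmQLFit, glmQLFTest; R 4.3.3) with the group as the only term. P-values were adjusted by Benjamini-Hochberg over 14056 genes, with calls under 0.05. Residual degrees of freedom were 2. Alternatives were DESeq2 1.42.0, limma-voom (limma 3.58.1), RLE scaling, other filters and leaving out each library. CPM for genes under the filter use the same scaling. The labels mention no molecular identifiers, so intervals cover counting error only.

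The members, lists and tests were chosen with earlier results of these data known. Named were Kcnn4, all called members, the 8 most abundant tested members in control, the 5 uncalled members with the smallest p-values, the members beside the filter, and up to 4 called partners in each direction. Most other tested members are given as well, and a few genes are not reported here by name, in the text or the plots. The motifs and the neighbouring genes were chosen after the sequences and values were seen.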

Additional observations from a re-analysis of the deposited data

How the results depend on the processing

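Kcnn4 kept its direction under every alternative run, between 4.52 and 6.02 without single libraries, and lost its call without control replicate A alone (4.52). The other called members lost theirs when either control was left out. The count of Kcn genes called higher was 5 under DESeq2, limma-voom, RLE scaling and both other filters, and 0 to 5 without single libraries. The count called lower was 1 where at least 1 CPM in 2 libraries was required (Kcna1 is no longer tested) and 0 to 12 without single libraries, 12 being without ALP replicate A. Partner genes called higher ranged from 0 to 13 and lower from 0 to 9 in those fits. Without a low-count filter, and in DESeq2, 73 members entered the test, and the median log2 fold change was 0.07 instead of -0.69. Leaving out ALP replicate A gave -1.04, and leaving out ALP replicate B -0.33. By fold change alone Kcnn4 ranked the second without the filter, behind Kcnk13 (0 counts in control), and without control replicate A, behind Kcnj14 (0 counts in control replicate B). Fits without an ALP library take their spread from the control pair, fits without a control from the ALP pair. Ordering the members by FPKM was not run. No paired analysis was possible because the columns of the 2 groups share only 1 replicate number, and these differ from the labels.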

Other observations

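The antisense rows named after Kcn genes were not members. Kcnq1ot1, the long antisense transcript of the imprinted Kcnq1 domain, had 186 and 195 counts in ALP and 257 and 186 in control, while Kcnq1 itself had 1 count in all. Kcnmb4os1 had 6 counts over the 4 libraries, Kcnab3os 1 and Kcnd3os 0.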
